A study of Mus musculus with 6 samples.

Results

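Neurotrophins are small secreted growth factors, and this description covers the genes of 3 of them and of 3 receptors that bind them in the embryonic mouse brain. The 6 members were taken by gene symbol from a table of 53801 genes, each symbol matched 1 gene, and all 6 passed the filter of at least 10 counts over the embryos. The ligands were Bdnf (brain-derived neurotrophic factor), Ntf3 (neurotrophin-3) and Ntf5 (neurotrophin-4), and the receptors were Ntrk2 (TrkB), Ntrk3 (TrkC) and Ngfr (the p75 neurotrophin receptor). Polyadenylated RNA was sequenced from whole brains of C57BL/6 embryos at E16.5. The Bahd1-KO group held 3 embryos of genotype Bahd1-/-, which lack the gene in every tissue, and the Bahd1-WT group held 3 embryos of genotype Bahd1+/+. Both genotypes came from matings of Bahd1+/- mice, and no embryo received a treatment. The comparison asked whether loss of BAHD1, a scaffold of chromatin-repressive complexes, changed the transcripts of the developing brain.

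Neurotrophins are made as precursors, cleaved by furin-type proteases and secreted as dimers that keep neurons alive, guide their axons and tune their synapses. BDNF and neurotrophin-4 act through the tyrosine kinase receptor TrkB, neurotrophin-3 acts mainly through TrkC, and p75 binds each neurotrophin and its precursor. Trk receptors signal through the ERK, PI3K and phospholipase C pathways, and both Ntrk2 and Ntrk3 also give rise to truncated receptors without a kinase, which a count per gene does not separate. In the rodent brain Ntf3 is known as an early neurotrophin, while Bdnf rises mostly after birth.

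The libraries held 61724000 to 91782802 counts, and Bahd1 itself had 2, 10 and 6 counts in Bahd1-KO replicates 1, 2 and 3 against 1971, 3102 and 3470 in Bahd1-WT replicates 1, 2 and 3. Bahd1-KO replicate 3 did not look like the embryonic brain of its label. Genes of nuclear and mitochondrial ribosomal RNA took 44.7% of its counts, against 0.249 to 0.614% in the other 5 embryos. The summed level of 9 neuron markers was 2248 CPM in this library and 8152 to 10048 CPM in the others. Of these markers 6 lay below and 1 above all other embryos, Snap25 at 910 CPM against 154 to 285. CPM here are counts per 1e6 counts, scaled by the trimmed mean of M-values (TMM). The summed level of 10 markers of mature brain was 1758 CPM against 222 to 399, that of 6 lung markers 1730 CPM against 0.672 to 12.7, and that of 7 skeletal muscle markers 57.8 CPM against 2.08 to 8.54. For 8 markers of meninges and connective tissue it was 2575 CPM against 343 to 451, for 10 of radial glia and astrocytes 1008 CPM against 1281 to 1549, and for 6 of blood 394 CPM against 121 to 543. No marker of any list was at 0 in this library. Of the 24739 genes tested, 38.1% lay above and 36.0% below all other embryos in Bahd1-KO replicate 3. Bahd1-KO replicate 1 stood apart in another way, with 1.999 CPM summed over 8 hindbrain and cerebellum markers against 20.1 to 53.2 CPM in the other embryos. The member results below are therefore given with all embryos and without Bahd1-KO replicate 3. The study also called this embryo a possible outlier, repeated its comparison of the embryos without it and reported little change. Since these are bulk samples, fewer cells of a type and less RNA per cell cannot be told apart.

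None of the neurotrophin or receptor genes differed between the genotypes past the adjusted threshold, in either set of embryos. With all 6 embryos, 0 of 6 members passed an adjusted p of 0.05, where 0.00404% of all genes did. That share was 1 gene, Bahd1 itself (log2 fold change -8.40, adjusted p 0.046 in edgeR). Ntf5 was the 1 member with an unadjusted p under 0.05, against 4.67% of all genes, 4.51% being higher and 0.166% lower in Bahd1-KO. Without Bahd1-KO replicate 3, 0 of 6 members passed the adjusted threshold (0.0171% of all genes) and 0 had an unadjusted p under 0.05 (1.48% of all genes, 1.09% higher and 0.386% lower). DESeq2 called 0 of 5 members with all embryos, where it gave Ntf5 no p, and 0 of 6 without Bahd1-KO replicate 3, against 0.0334% and 0.0471% of all genes. The adjusted p-values of edgeR ranged from 0.696 to 0.934 with all embryos and from 0.981 to 0.993 without Bahd1-KO replicate 3. The values of both genotypes overlapped for 5 members, while 6.71% of all genes did not overlap (4.47% higher and 2.24% lower in Bahd1-KO). Without Bahd1-KO replicate 3 Ntf5 was again the 1 member without overlap, against 10.8% of all genes (6.3% higher and 4.5% lower). The p-values weigh each genotype difference against the spread between these embryos, which the fits estimated with information from all genes. The intervals below state how large a difference these embryos leave possible.

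**Figure D1:**
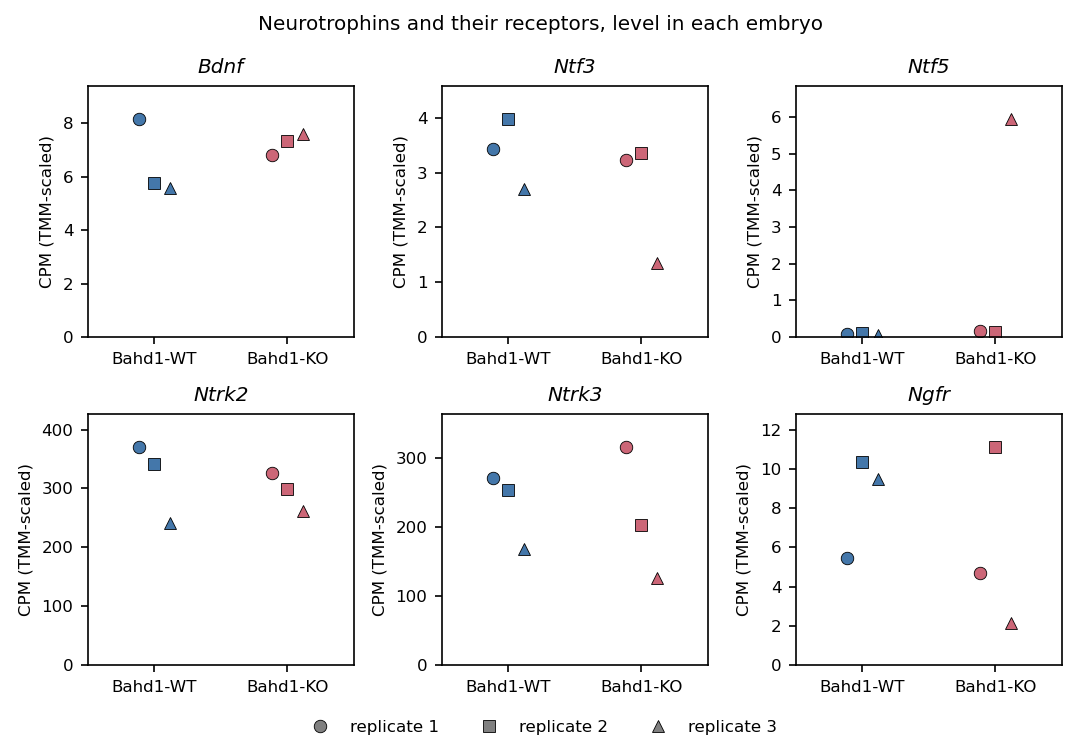
Level of each member in each embryo, in TMM-scaled CPM on a linear axis from 0, with Bahd1-WT in blue, Bahd1-KO in red and the marker shape giving the replicate number. Ntf5 stands at 5.95 CPM in Bahd1-KO replicate 3 and at 0.168 CPM or less elsewhere, and Ngfr is low in replicate 1 of both genotypes (5.45 and 4.70 CPM) and in Bahd1-KO replicate 3 (2.13 CPM).

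Among the ligands, Bdnf did not differ between the genotypes beyond the spread of the embryos. Bdnf (ENSMUSG00000048482, chromosome 2, 109674700 to 109727007, forward strand, all positions in GRCm38) lies 9.17 Mb from Bahd1. It had 782, 507 and 562 counts in Bahd1-WT replicates 1, 2 and 3 and 447, 621 and 410 counts in Bahd1-KO replicates 1, 2 and 3. The levels were 8.17, 5.75 and 5.56 CPM in Bahd1-WT and 6.82, 7.35 and 7.60 CPM in Bahd1-KO. Bahd1-WT replicate 1 was the highest embryo, the other 2 Bahd1-WT embryos were the lowest, and all 3 Bahd1-KO embryos lay between them. The mean was 6.49 ± 1.45 CPM in Bahd1-WT and 7.26 ± 0.397 CPM in Bahd1-KO (SD, n = 3 each). The log2 fold change was 0.16 (95% interval -0.57 to 0.89), and 0.11 (-0.53 to 0.76) without Bahd1-KO replicate 3. In Bahd1-KO replicate 3 the Bdnf level was 1.114 times the median of the other 5 embryos. The neuron marker sum there was 0.252 times their median, although the markers did not all go down.

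Transcription of Bdnf starts at several alternative first exons, each with its own promoter, and RefSeq gives 7 windows for the gene (GRCm38.p6, each from 250 bases before to 50 after a start). Reads per start cannot be told from counts per gene. The window shown is the single Bdnf window that held TGACG, the core of the cAMP response element (CRE) through which CREB acts on activity-dependent promoters. It covers chr2:109692186-109692485 on the forward strand, and the capitals mark this core, read on the opposite strand.
Bdnf promoter window: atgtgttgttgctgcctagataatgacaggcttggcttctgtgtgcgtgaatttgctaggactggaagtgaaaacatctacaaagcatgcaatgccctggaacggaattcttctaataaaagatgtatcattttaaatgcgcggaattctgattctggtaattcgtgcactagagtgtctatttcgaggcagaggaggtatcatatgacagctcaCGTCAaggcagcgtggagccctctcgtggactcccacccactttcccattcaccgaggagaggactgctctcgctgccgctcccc
The core was present on either strand in 20.8% of all 32841 windows of this length, and the full element TGACGTCA in 1.79% of them and in 0 of the 7 Bdnf windows. Motifs were counted on both strands, and each full element also contains the core.

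Ntf3, which feeds TrkC signalling and the survival of proprioceptive neurons, had its lowest level in Bahd1-KO replicate 3. Ntf3 (ENSMUSG00000049107, chromosome 6, 126101412 to 126166910, reverse strand) had 328, 351 and 272 counts in Bahd1-WT and 212, 284 and 73 in Bahd1-KO replicates 1, 2 and 3. These counts gave 3.43, 3.98 and 2.69 CPM in Bahd1-WT and 3.24, 3.36 and 1.35 CPM in Bahd1-KO. Only Bahd1-KO replicate 3 fell outside the range of the Bahd1-WT embryos, at 0.402 times the median of the other 5. The means were 3.37 ± 0.646 CPM in Bahd1-WT and 2.65 ± 1.13 CPM in Bahd1-KO (SD, n = 3 each). The log2 fold change was -0.34 (95% interval -1.41 to 0.72) with all embryos. Without Bahd1-KO replicate 3 it was -0.04 (-0.69 to 0.61).

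Ntf5, the gene of the second TrkB ligand, was near the limit of detection in 5 embryos and abundant in 1. Ntf5 (ENSMUSG00000074121, chromosome 7, 45413695 to 45417179, forward strand) had 8, 11 and 6 counts in Bahd1-WT and 11, 12 and 321 counts in Bahd1-KO replicates 1, 2 and 3. The levels were 0.0836, 0.125 and 0.0594 CPM in Bahd1-WT and 0.168, 0.142 and 5.95 CPM in Bahd1-KO. Bahd1-KO replicate 3 held 47.7 times the median level of the other 5 embryos. All Bahd1-KO embryos lay above all Bahd1-WT embryos, as did 4.47% of all genes (6.3% without Bahd1-KO replicate 3). The lower Bahd1-KO embryo of the remaining pair and the highest Bahd1-WT embryo rested on 12 and 11 counts, whose exact 95% Poisson intervals of 6.20 to 20.96 and 5.49 to 19.7 counts overlapped. Such intervals cover counting error alone. The log2 fold change was 4.52 (95% interval 0.87 to 8.18, unadjusted p 0.0220, adjusted p 0.696 in edgeR). Without Bahd1-KO replicate 3 it was 0.78 (-0.37 to 1.92, adjusted p 0.981 in edgeR). The marker sums of lung, skeletal muscle, mature brain, meninges and connective tissue, Schwann and neural crest cells, and hindbrain and cerebellum were also highest in this library. The 8 hindbrain and cerebellum markers went both ways, 4 (Hoxb5, Hoxb3, Hoxa2 and Hoxa3) lying above and 1 (En1) below all other embryos. En2, Atoh1 and Pax2 lay within the range of the other embryos. The part of the marker groups named here in the Ntf5 level was not tested.

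The TrkB and TrkC genes had by far the most counts of the family. Ntrk2 (ENSMUSG00000055254, chromosome 13, 58806569 to 59133970, forward strand), whose product binds BDNF and neurotrophin-4, had 35557, 30062 and 24455 counts in Bahd1-WT and 21367, 25300 and 14117 counts in Bahd1-KO replicates 1, 2 and 3. The levels were 371, 341 and 242 CPM in Bahd1-WT and 326, 299.6 and 262 CPM in Bahd1-KO. All 3 Bahd1-KO embryos lay inside the range of the Bahd1-WT embryos. The means were 318 ± 67.6 CPM in Bahd1-WT and 296 ± 32.4 CPM in Bahd1-KO (SD, n = 3 each). The log2 fold change was -0.11 (95% interval -0.72 to 0.51), and -0.04 (-0.57 to 0.49) without Bahd1-KO replicate 3. In Bahd1-KO replicate 3 Ntrk2 stood at 0.802 times the median of the other embryos. The neuron marker sum of this library stood at 0.252 times, with Snap25 going the other way. The 10 radial glia and astrocyte markers went both ways in this library, 6 lying below and 3 above all other embryos, with Sox2 at 13.99 CPM against 60.7 to 99.8 and Aqp4 at 126 CPM against 6.69 to 37.4.

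Ntrk3, whose product is the main receptor of neurotrophin-3, varied more between embryos than Ntrk2. Ntrk3 (ENSMUSG00000059146, chromosome 7, 78175959 to 78738012, reverse strand) had 25867, 22346 and 16900 counts in Bahd1-WT and 20731, 17114 and 6820 counts in Bahd1-KO replicates 1, 2 and 3. The levels were 270.2, 253 and 167 CPM in Bahd1-WT and 316, 203 and 126 CPM in Bahd1-KO. Bahd1-KO held both the highest embryo (replicate 1) and the lowest (replicate 3). The means were 230.3 ± 55.2 CPM in Bahd1-WT and 215 ± 95.6 CPM in Bahd1-KO (SD, n = 3 each). The log2 fold change was -0.10 (95% interval -0.998 to 0.80). It changed sign to 0.15 (-0.49 to 0.80) without Bahd1-KO replicate 3. Leaving out Bahd1-KO replicate 1 instead, the highest embryo, gave -0.48.

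Ngfr, whose product p75 binds mature neurotrophins and their precursors, spread most among the receptors. Ngfr (ENSMUSG00000000120, chromosome 11, 95568818 to 95587735, reverse strand) had 522, 915 and 961 counts in Bahd1-WT and 308, 942 and 115 counts in Bahd1-KO replicates 1, 2 and 3. The levels were 5.45, 10.4 and 9.51 CPM in Bahd1-WT and 4.70, 11.2 and 2.13 CPM in Bahd1-KO. Replicate 1 was the lowest embryo of Bahd1-WT and was low in Bahd1-KO too, replicate 2 was the highest of both genotypes, and the groups overlapped. The means were 8.45 ± 2.63 CPM in Bahd1-WT and 6.00 ± 4.65 CPM in Bahd1-KO (SD, n = 3 each). The log2 fold change was -0.49 (95% interval -1.93 to 0.94), and -0.09 (-1.10 to 0.92) without Bahd1-KO replicate 3. Leaving out Bahd1-KO replicate 2 instead, the highest embryo, gave -1.34 (unadjusted p 0.0433, adjusted p 0.241 in edgeR). In that fit 4878 of 24149 genes had an unadjusted p under 0.05. p75 is known from cholinergic neurons of the basal forebrain, sensory neurons and Schwann cells, so the markers of these cells are given beside it. In Bahd1-KO replicate 3 the summed level of 6 cholinergic markers was 9.93 CPM against 45.5 to 62.5 in the other embryos, and that of 8 sensory neuron markers was 8.99 CPM against 44.0 to 60.6. The sum of 7 Schwann and neural crest markers in Bahd1-KO replicate 3 was 251 CPM against 28.0 to 31.6, most of it from Pmp22 (155 CPM) and Erbb3 (81.5 CPM). Of these markers 4 lay above all other embryos and 1 below them, Egfl8 at 0.148 CPM against 0.355 to 0.782. Sox10 (4.39 CPM) lay within the range of the other embryos (1.86 to 7.83), as did Foxd3 (0.334 CPM against 0.125 to 0.347). The part of these cell types in the Ngfr level was not tested.

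The Ngfr levels were set beside those of genes of like base composition. Ngfr had the highest GC content of the 6 members, 58.6% over its longest transcript. Among the 5 embryos other than Bahd1-KO replicate 3, Ngfr deviated on the log2 scale from its mean by -0.51 in Bahd1-WT replicate 1 and -0.72 in Bahd1-KO replicate 1. The 1590 genes within 2 percentage points of its GC content had a median deviation of -0.34 and -0.74 in the same libraries. In Bahd1-WT replicates 2 and 3 and Bahd1-KO replicate 2 Ngfr deviated by 0.42, 0.29 and 0.52, and those genes by 0.42, 0.44 and 0.24. The signs were alike in all 5 embryos. They were not for Ntf5, whose GC content is close (57.1%). Ntf5 deviated by 0.57 in Bahd1-KO replicate 1 and -0.76 in Bahd1-WT replicate 3, where 2141 genes of like GC content had medians of -0.62 and 0.39. Ntrk3 (43.6%) also deviated to the opposite side in Bahd1-WT replicate 2, by 0.10 beside -0.16. The comparison for Bdnf, which has the lowest GC content (40.9%), gave 0.29, -0.21, -0.26, 0.03 and 0.14 in Bahd1-WT replicates 1, 2 and 3 and Bahd1-KO replicates 1 and 2, beside 0.20, -0.24, -0.23, 0.35 and -0.07 for 1862 genes. After GC content was corrected for in every library and Bahd1-KO replicate 3 was left out, the Ngfr log2 fold change turned from -0.09 to 0.23 and the Bdnf value from 0.11 to -0.06. With all embryos this correction moved Ngfr from -0.49 to -0.12 and Bdnf from 0.16 to -0.15. The RefSeq promoter window of Ngfr (GRCm38.p6, chr11:95587649-95587948, reverse strand) is shown as the most GC-rich of the windows found for members. Most of it lies before the start and is not part of the transcript. The capitals mark GC boxes (GGGCGG on either strand), the motif that Sp1 binds.
Ngfr promoter window: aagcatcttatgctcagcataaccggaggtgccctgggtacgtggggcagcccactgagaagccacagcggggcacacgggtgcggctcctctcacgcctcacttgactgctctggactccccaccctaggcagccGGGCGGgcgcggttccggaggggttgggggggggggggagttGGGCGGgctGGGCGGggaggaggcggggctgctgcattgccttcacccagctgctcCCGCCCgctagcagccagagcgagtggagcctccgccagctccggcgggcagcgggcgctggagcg
This window held 4 GC boxes and 23 CG pairs at a GC content of 71.7%, higher than 92.6% of the 32841 windows, whose median was 52.7%. At least 1 GC box was present in 35.7% of them. RefSeq windows were matched for 4 of the 6 members, Bdnf, Ntf3, Ntrk2 and Ngfr.

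**Figure D2:**
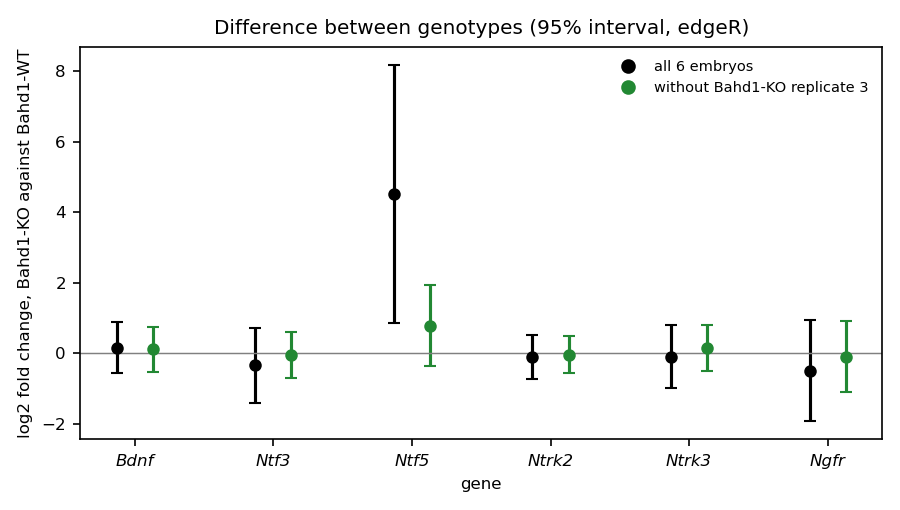
Log2 fold change of each member between Bahd1-KO and Bahd1-WT in edgeR, with 95% intervals, for all 6 embryos (black) and without Bahd1-KO replicate 3 (green). Without this embryo all 6 intervals include 0, and the Ntf5 value moves from 4.52 to 0.78.

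The spread between embryos differed among the members. Among the 5 embryos other than Bahd1-KO replicate 3, the highest level was 1.47 times the lowest for Bdnf, 1.48 for Ntf3, 1.53 for Ntrk2, 1.89 for Ntrk3, 2.37 for Ngfr and 2.83 for Ntf5. The median of this ratio over 14368 genes with a mean of at least 1 CPM was 1.59. Bahd1-WT replicate 3 was the lowest of the 5 for Bdnf, Ntf3, Ntf5, Ntrk2 and Ntrk3. Ngfr was lowest in Bahd1-KO replicate 1.

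Levels were compared between genes per kilobase of exon, since a long gene collects more reads. Averaged over the 5 embryos other than Bahd1-KO replicate 3, the level was 16.4 ± 2.53 CPM per kilobase for Ntrk2, 8.02 ± 1.93 for Ntrk3, 2.39 ± 0.858 for Ngfr, 1.95 ± 0.269 for Ntf3, 1.08 ± 0.176 for Bdnf and 0.0435 ± 0.0165 for Ntf5 (SD, n = 5). Over all 6 embryos the means were 15.9 ± 2.54 for Ntrk2, 7.38 ± 2.33 for Ntrk3, 2.096 ± 1.05 for Ngfr, 1.76 ± 0.531 for Ntf3, 1.106 ± 0.167 for Bdnf and 0.410 ± 0.898 for Ntf5 (SD, n = 6). Ntrk2 lay above Ntrk3, and Ntrk3 above Ngfr, in 6 of 6 embryos. Ngfr and Ntf3 did not differ beyond their spread, with Ngfr the higher in 3 of 6 embryos. Ntf3 lay above Bdnf per kilobase, and Bdnf above Ntf5, in 5 of 6 embryos, and Bahd1-KO replicate 3 was the exception in both. In this library Ntf3, Bdnf and Ntf5 stood at 0.789, 1.22 and 2.24 CPM per kilobase. With the length of the longest coding transcript in place of all exons, the mean over 6 embryos was 35.1 for Ntrk2, 11.3 for Ntrk3 and 1.61 for Bdnf, and each pair kept its order in the same number of embryos.

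**Figure D3:**
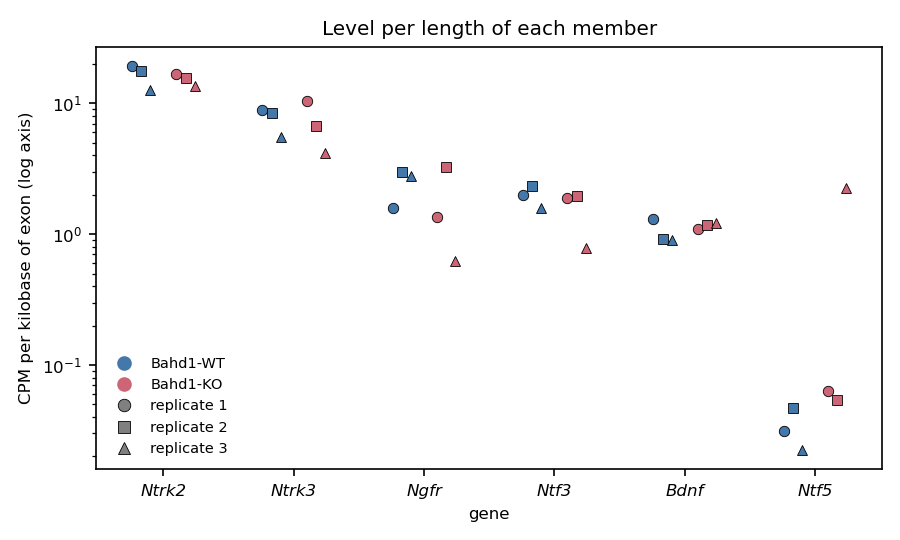
Level per kilobase of exon of each member in each embryo, in TMM-scaled CPM per kilobase on a log axis, with colour for genotype and marker shape for replicate. Ntrk2 and Ntrk3 stand above the ligands in each embryo, Ngfr (0.618 to 3.24) overlaps all 3 ligands, and in Bahd1-KO replicate 3 Ngfr lies below all 3 of them.

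Ratios of members within an embryo do not depend on library size, and 3 of them were formed from levels per kilobase. The Ntrk2 to Ntrk3 ratio was 2.15, 2.104 and 2.26 in Bahd1-WT and 1.61, 2.31 and 3.24 in Bahd1-KO replicates 1, 2 and 3. The Bahd1-WT embryos lay close together, and the Bahd1-KO embryos lay on both sides of them. The Bdnf to Ntf3 ratio was 0.657, 0.398 and 0.570 in Bahd1-WT and 0.581, 0.603 and 1.55 in Bahd1-KO. Ntf3 was thus the more abundant ligand gene per kilobase in each embryo except Bahd1-KO replicate 3. The Ngfr to Ntrk2 ratio was 0.0822, 0.1704 and 0.220 in Bahd1-WT and 0.0807, 0.208 and 0.0456 in Bahd1-KO. It was alike in replicate 1 of both genotypes. The groups overlapped for all 3 ratios.

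**Figure D4:**
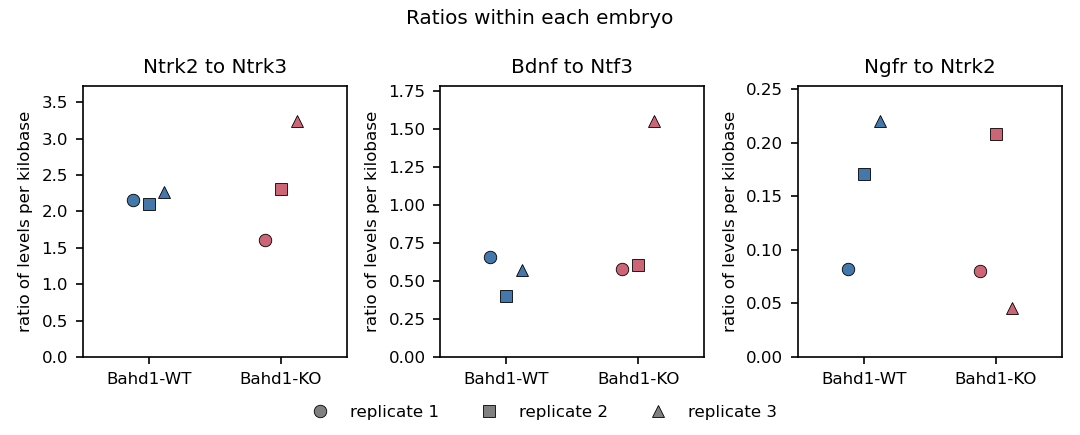
Ratios of levels per kilobase within each embryo, on linear axes from 0, by genotype with the marker shape giving the replicate number. Bahd1-KO replicate 3 holds the highest Ntrk2 to Ntrk3 ratio (3.24), the highest Bdnf to Ntf3 ratio (1.55) and the lowest Ngfr to Ntrk2 ratio (0.0456).

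The other genes of the pathway were described by lists that held 108 genes, of which 107 were tested. With all embryos 0 of them passed the adjusted threshold, and 0 had an unadjusted p under 0.05 (4.67% of all genes). DESeq2 called 0 of the 107 as well (0.0334% of all genes). Both counts were 0 again without Bahd1-KO replicate 3 (1.48% of all genes at an unadjusted p under 0.05). The median log2 fold change of the 107 genes was -0.18 with all embryos and -0.11 without this embryo, against 0.06 and -0.01 over all genes tested. Of the 107 genes 47 lay above and 60 below 0 with all embryos, and 34 above and 73 below without this embryo.

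Proteins that process and sort neurotrophins gave 7 genes above and 8 below 0 of 15 tested, with a median log2 fold change of -0.21. Cpe, whose product sorts pro-BDNF to regulated secretion, was at 555 ± 58.8 CPM in Bahd1-WT and 474 ± 138 in Bahd1-KO. Sort1, which encodes sortilin, a partner of p75 in binding precursors, was at 203 ± 14.3 and 227 ± 75.7 CPM. For Sort1 the log2 fold change turned from 0.16 to -0.17 without Bahd1-KO replicate 3, which held 314 CPM against 186 and 179.9 in the other Bahd1-KO embryos. Trk adaptors gave 7 genes above and 13 below 0 of 20, with a median of -0.37. Kidins220, which encodes a scaffold at Trk receptors, was at 1016 ± 101 CPM in Bahd1-WT and 734 ± 394 in Bahd1-KO, where replicate 3 stood at 285 CPM and the other 2 at 1019 and 899. Grb2, which links receptors to Ras, was at 143 ± 14.3 and 102 ± 41.2 CPM (SD, n = 3 each throughout). Without Bahd1-KO replicate 3 the processing list gave 3 above and 12 below 0, with a median of -0.10. The adaptor list then gave 5 above and 15 below, with a median of -0.17. The Bahd1-KO means were then 548 ± 68.6 CPM for Cpe and 125 ± 15.2 for Grb2 (SD, n = 2).

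Kinases and GTPases of the ERK and PI3K pathways gave 10 genes above and 14 below 0 of 24, with a median of -0.15. Without Bahd1-KO replicate 3 they gave 12 above and 12 below, with a median of -0.01. Rap1b, the gene of a small GTPase, was at 175 ± 43.4 CPM in Bahd1-WT and 241 ± 57.8 in Bahd1-KO. Interactors and proteases of p75 gave 6 above and 12 below 0 of 18, with a median of -0.37. Leaving out Bahd1-KO replicate 3 gave 4 above and 14 below, with a median of -0.25. Maged1, whose product binds the intracellular part of p75, was at 678 ± 170 CPM in Bahd1-WT and 413 ± 211 in Bahd1-KO, and Bex3, which encodes another p75-binding protein, at 201 ± 34.9 and 134 ± 55.6 CPM. Transcription factors and cofactors that act on Bdnf gave 5 above and 8 below 0 of 13, with a median of -0.24 in both sets. Mef2c, an activity-regulated factor, was at 282 ± 90.0 and 289 ± 115 CPM, and Usf1, an E-box factor, at 65.0 ± 28.7 and 37.0 ± 26.5 CPM (SD, n = 3 each throughout). The Bahd1-KO means without replicate 3 were 209.9 ± 26.7 CPM for Rap1b, 515 ± 163 for Maged1, 157 ± 54.9 for Bex3, 333 ± 121 for Mef2c and 47.9 ± 26.2 for Usf1 (SD, n = 2).

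Genes known to respond to neurotrophins gave 11 above and 4 below 0 of 15, with a median of 0.39 that fell to -0.06 without Bahd1-KO replicate 3, where 5 lay above and 10 below 0. Dusp4, which encodes an ERK phosphatase, was at 58.7 ± 7.80 CPM in Bahd1-WT and 46.4 ± 34.9 in Bahd1-KO. The neuropeptide gene Npy was at 29.2 ± 7.87 and 20.5 ± 12.4 CPM (SD, n = 3 each). Both were lowest in Bahd1-KO replicate 3, at 6.15 and 6.28 CPM. Without it the Dusp4 log2 fold change turned from -0.34 to 0.17, and the Npy value moved from -0.51 to -0.09. None of these genes passed the test, so the counts above and below 0 describe the embryos only.

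**Figure D5:**
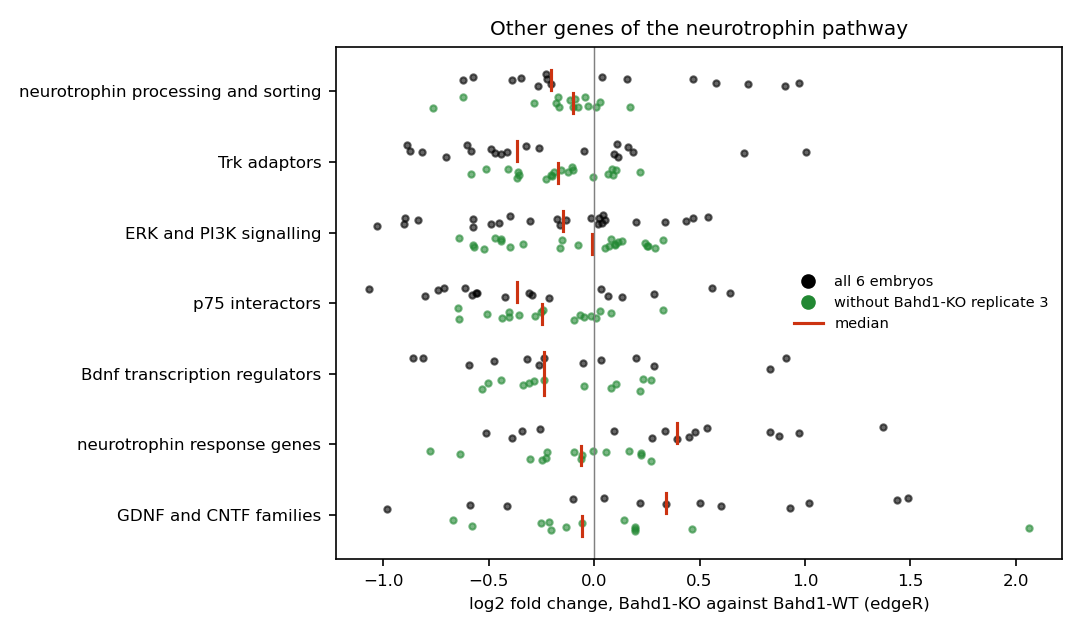
Log2 fold change between Bahd1-KO and Bahd1-WT in edgeR for each gene of 6 pathway lists and of the GDNF and CNTF families, with all 6 embryos (black) and without Bahd1-KO replicate 3 (green), and the median of each list as a red line. The median of the neurotrophin response genes moves from 0.39 to -0.06 when this embryo is left out.

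Genes whose levels over the embryos were most like each member were named from 13753 protein-coding genes, by Pearson's r of log2 CPM, as a description over few libraries that share depth and base composition. Over all 6 embryos these were Zmat4, Fgf9 and Ttpa for Bdnf (r 0.986, 0.983 and 0.969), Garnl3 and Pcdha12 for Ntf3 (0.997 and 0.996) and Klk13, P2ry14 and Tbx5 for Ntf5 (0.999, 0.998 and 0.998). For the receptors they were Akap6, Oxtr and Nrxn3 for Ntrk2 (0.995, 0.992 and 0.991), Lyrm7, Usp24 and Kcnq3 for Ntrk3 (0.995, 0.994 and 0.993) and Tsku, Rsph9 and Comtd1 for Ngfr (0.996, 0.994 and 0.994). The number of genes with an r above 0.95 over all 6 embryos was 1229 for Ntf5, 1070 for Ngfr and 4 for Bdnf. These numbers depended on 1 library, being 25, 717 and 104 without Bahd1-KO replicate 3. Without Bahd1-KO replicate 3 the first genes were Rragb, B3galnt1 and Lhfp for Bdnf, Asap1, Chrm1 and Wipf3 for Ntf3, Slc1a4, Slc22a21 and Klk13 for Ntf5, Slc9a7, Sphkap and Slc25a35 for Ntrk2, Usp24, Foxo1 and Cntnap3 for Ntrk3, and Tmem63a, Atp6v0c and Fyn for Ngfr. Klk13 for Ntf5 and Usp24 for Ntrk3 were named in both sets.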

How the data were processed

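Whole-brain RNA of 3 Bahd1-KO and 3 Bahd1-WT embryos was analysed from 1 table. The deposited values were raw read counts per gene, without normalization or a filter on low counts. As the study's methods describe, the authors built stranded poly(A) libraries, sequenced them as single-end reads in technical replicates, trimmed them with cutadapt (version 1.11), aligned them to GRCm38 with STAR (version 2.5.0a) and counted exon reads by strand with featureCounts. TopHat2 is also named, and which aligner made this table is not stated. Groups and replicate numbers came from the sample titles. Nothing says whether embryos shared a litter.

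The quasi-likelihood test was run in edgeR (version 4.0.16, R 4.3.3) on genes that reached 10 counts summed over the embryos, two-sided, with TMM factors, genotype as the term and Benjamini-Hochberg adjustment over all genes tested. Intervals are at 95% from the standard error and the degrees of freedom of that fit. DESeq2 (version 1.42.0) and voom of limma (version 3.58.1) were alternatives, with other filters, scalings, the replicate number as a block and each embryo left out. A lowess correction for GC content (span 0.3) was added after seeing the data. Scripts were tested on simulated data. Positions, exon lengths and GC content came from GENCODE M21 (GRCm38), which matched 53620 genes by ID, and promoter windows from RefSeq.

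The members and gene lists were chosen with earlier results of these data known. Named were the members, Bahd1, in each list the 2 genes highest per kilobase and up to 4 at an unadjusted p under 0.05, and the 3 genes most like each member (mean of at least 1 CPM, prior count 1). Other genes were chosen after their values were seen. Some genes that this rule names are not reported here.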

Additional observations from a re-analysis of the deposited data

How the results depend on the processing

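The 6 log2 fold changes were recomputed under 19 alternatives each, of which the 3 with a GC correction were chosen after seeing the data. No member passed an adjusted p of 0.05 in any of them. Fits without Bahd1-KO replicate 1 or 2, or without any 1 Bahd1-WT embryo, called 0 of all genes, the deleted Bahd1 included. So did both fits with the replicate block and all embryos. Having missed Bahd1, these fits cannot tell whether a member differed. For Ntf5, DESeq2 withheld 1 adjusted p. Ntf3, Ntf5 and Ntrk2 kept their direction in all 19, with ranges of -0.58 to -0.03, 0.55 to 5.08 and -0.28 to -0.01. The all-gene median stood at 0.06 with TMM, 0.17 with upper-quartile factors and -0.11 with total counts. Bdnf changed sign to -0.023 with total counts, to -0.15 with the GC content correction, to -0.064 with this correction and without Bahd1-KO replicate 3, and to -0.17 with this correction and the replicate block. Ntrk3 changed sign to 0.00015 with upper-quartile factors, to 0.16 with voom and embryo quality weights and to 0.16 with DESeq2 without Bahd1-KO replicate 3. In the fits that each left out 1 embryo Ntrk3 ran from -0.48 to 0.15, and the fit without Bahd1-KO replicate 3 gave the positive value. Ngfr changed sign to 0.23 with the GC content correction and without Bahd1-KO replicate 3. The cause of these changes was not tested. The log2 difference between genotypes turned from 0.08 to -0.17 for the Ntrk2 to Ntrk3 ratio without Bahd1-KO replicate 3, and moved from 0.62 to 0.16 for Bdnf to Ntf3 and from -0.67 to -0.17 for Ngfr to Ntrk2. Embryos of equal replicate number had correlations of 0.21, 0.32 and -0.11 between their deviations, so the numbers were not taken as pairs, and not every embryo correlated best with its own number. Without Bahd1-KO replicate 3 the replicate block raised the calls over all genes from 4 to 16, and those at an unadjusted p under 0.05 from 345 to 2171, with 0 members past the adjusted threshold. With the replicate block and all embryos edgeR called 0 genes in place of 1 over all genes, and 0 members, at log2 fold changes of 0.18 for Bdnf, -0.43 for Ntf3, 2.29 for Ntf5, -0.09 for Ntrk2, -0.17 for Ntrk3 and -0.72 for Ngfr. Counts of 6 to 12 limit what can be said of Ntf5 outside Bahd1-KO replicate 3.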

Other observations

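Other neurotrophic families were described beside the neurotrophins. Of 13 genes of the GDNF and CNTF families tested, 9 lay above and 4 below 0, with a median log2 fold change of 0.34 that fell to -0.06 without Bahd1-KO replicate 3. None passed the adjusted threshold in edgeR (0.00404% of all genes) or DESeq2 (0.0334%), and 0 had an unadjusted p under 0.05 in edgeR (4.67%). Il6st, which encodes the signalling subunit gp130, was at 75.7 ± 7.88 CPM in Bahd1-WT and 115 ± 71.7 in Bahd1-KO, where replicate 3 stood at 198 CPM and the other 2 at 74.2 and 72.7. Cntfr, the gene of the CNTF-binding subunit, was at 42.1 ± 16.53 and 21.3 ± 20.4 CPM (SD, n = 3 each), and at 28.1 ± 23.5 CPM in Bahd1-KO without replicate 3 (SD, n = 2).

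Among genes annotated on the strand opposite to a member, Gm9885 inside Ntrk3 was the most abundant, chosen after its values were seen. It had 136, 262 and 307 counts in Bahd1-WT and 106, 221 and 16 in Bahd1-KO replicates 1, 2 and 3. Gm45346, opposite to Bdnf, had 15, 19 and 10 counts in Bahd1-WT and 13, 18 and 5 in Bahd1-KO.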
